A study of Mus musculus with 12 samples.

Results

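Natriuretic peptides, nitric oxide and endothelin act on blood vessels and the kidney. Here 10 genes of these pathways are described across all samples of a mouse hypertension study. The genes were chosen by pathway name, and the set was selected on the genotype values of Npr2, which ran in opposite directions in the 2 sample types. All 10 had a row in both deposited tables, among 19760 genes held by either table. The mice had been made with CRISPR-Cas9 and were homozygous for the Arg-encoding major allele (Arg/Arg) or the Trp-encoding minor allele (Trp/Trp) of rs3184504, a coding polymorphism of SH2B3, which encodes an adaptor protein that dampens cytokine signalling. Every animal had received angiotensin II, a peptide that raises blood pressure, for 4 weeks, and no untreated group was among the samples. PolyA RNA came either from whole kidney or from F4/80+ cells that had been taken from other kidneys with a Percoll gradient and anti-F4/80 microbeads, with 3 libraries in each of the 4 groups. The labels call the libraries of a group biological replicates without naming animals, so p-values measure the spread between these samples. The sources used here did not give age, sex, strain background or dose.

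In this system, atrial and B-type natriuretic peptides bind the receptor encoded by Npr1, and C-type natriuretic peptide binds the receptor encoded by Npr2. Both receptors carry a guanylyl cyclase domain and make cyclic GMP, whereas the receptor encoded by Npr3 removes the peptides from the circulation. Nitric oxide makes cyclic GMP through soluble guanylyl cyclase, a dimer of the Gucy1a1 and Gucy1b1 products, and cyclic GMP activates the kinase encoded by Prkg1, which relaxes vascular smooth muscle. Endothelin-1, the product of Edn1, is released from its precursor by the enzyme encoded by Ece1. It constricts vessels through the receptor encoded by Ednra, and through the receptor encoded by Ednrb it promotes sodium excretion in the collecting duct and nitric oxide release from endothelium.

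Depth and purity bear on every value below. Library totals were 19.6 to 54.7 M counts (M, 1000000) in kidney and 35.9 to 51.6 M in the F4/80+ preparations, where mitochondrial genes took 70.1 to 83.6% of counts against 7.86 to 9.35% in kidney. Levels are therefore CPM, a gene's count per 1000000 nuclear protein-coding counts of the library, of which there were 17.8 to 50.0 M per kidney library and 6.88 to 11.1 M per F4/80+ library. The label of the F4/80+ cells as macrophages was checked against 12 macrophage markers, of which 11 had a row in that table and none was at 0 in any library. Their summed level was 55.7 to 313 CPM in the F4/80+ preparations and 262 to 554 CPM in whole kidney, where all 12 had a row. The sum was thus not higher in the preparations. Single markers differed, and of the 11 tested between sample types, 3 were called higher and 5 lower in the preparations by edgeR. Adgre1, which encodes F4/80 itself, stood at 1.26 to 16.7 CPM in the preparations and 4.11 to 8.32 CPM in kidney, while 11 proximal tubule markers summed to 16581 to 52116 CPM in the preparations, a range that enclosed the 27401 to 33421 CPM of kidney. These samples are accordingly called F4/80+ preparations, and no value in them is assigned to a cell type. In bulk RNA, fewer cells of a type and less RNA per cell cannot be told apart.

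The 250 bases before the RefSeq start site are shown for 5 of the genes, because these were the gene with opposite genotype values (Npr2), the genes with the largest difference between sample types in each direction (Npr1 and Edn1), and the pair whose products form 1 enzyme (Gucy1a1 and Gucy1b1). Each is written 5′ to 3′ on the gene's own strand, from RefSeq on build GRCm38.p6. Capitals mark GC boxes (GGGCGG) and CCAAT boxes (CCAAT), read on either strand, so that a box on the other strand appears as CCGCCC or ATTGG. Npr2 (chr4:43631685-43631934, plus strand), Npr1 (chr3:90465867-90466116, minus strand), Edn1 (chr13:42301226-42301475, plus strand), Gucy1a1 (chr3:82145651-82145900, minus strand) and Gucy1b1 (chr3:82074712-82074961, minus strand) read as follows.
Npr2: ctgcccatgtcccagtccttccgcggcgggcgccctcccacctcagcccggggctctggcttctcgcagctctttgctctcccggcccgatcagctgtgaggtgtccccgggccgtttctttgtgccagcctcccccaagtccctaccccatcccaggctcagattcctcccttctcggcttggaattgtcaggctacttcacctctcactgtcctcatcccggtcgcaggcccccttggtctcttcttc
Npr1: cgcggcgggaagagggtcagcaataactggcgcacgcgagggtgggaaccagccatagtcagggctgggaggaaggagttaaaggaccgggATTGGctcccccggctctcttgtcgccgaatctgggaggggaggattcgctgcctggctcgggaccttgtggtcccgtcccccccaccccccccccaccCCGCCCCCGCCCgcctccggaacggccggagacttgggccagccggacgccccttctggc
Edn1: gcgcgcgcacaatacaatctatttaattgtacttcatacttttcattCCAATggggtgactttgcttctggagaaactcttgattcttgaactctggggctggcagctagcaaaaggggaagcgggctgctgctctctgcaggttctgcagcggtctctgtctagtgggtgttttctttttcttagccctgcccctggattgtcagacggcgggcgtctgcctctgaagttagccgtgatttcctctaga
Gucy1a1: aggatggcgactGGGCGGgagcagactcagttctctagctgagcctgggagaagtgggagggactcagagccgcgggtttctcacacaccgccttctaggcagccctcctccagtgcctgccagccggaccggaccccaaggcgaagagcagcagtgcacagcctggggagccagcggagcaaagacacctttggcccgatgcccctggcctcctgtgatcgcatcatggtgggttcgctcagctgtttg
Gucy1b1: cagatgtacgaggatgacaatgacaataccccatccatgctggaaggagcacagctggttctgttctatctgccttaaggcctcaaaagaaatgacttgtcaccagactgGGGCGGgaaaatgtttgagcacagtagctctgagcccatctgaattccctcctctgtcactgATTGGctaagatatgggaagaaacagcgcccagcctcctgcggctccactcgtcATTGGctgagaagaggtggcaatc

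The Npr1 window, 70.4% GC, held GC boxes 60 and 54 bases before the start site and a CCAAT box 159 bases before it. The Edn1 window was 50.4% GC and held a CCAAT box 203 bases before the start site. Npr2, 64.4% GC, held no match to any of the 6 motifs searched on both strands, which were these boxes, the TATA box (TATAAA), the AP-1 site (TGANTCA), the cyclic AMP response element (TGACGTCA) and a GATA site (AGATAA). Gucy1a1 and Gucy1b1 lie next to each other on the minus strand of chromosome 3 with 17.7 kb between them. Their windows shared a GC box, 238 and 140 bases before the start, and Gucy1b1 also had CCAAT boxes at 78 and 24 bases. Of the 10 windows, 4 held a GC box and 7 a CCAAT box, against 32.7% and 33.8% of 32851 RefSeq promoter windows of the same length. The RefSeq start site lay inside the deposited gene by 12 bases for Ednra, 139 for Gucy1a1 and 701 for Ednrb. The windows of Ednra and Gucy1a1 thus lay partly, and that of Ednrb wholly, inside the deposited gene. A match is a run of letters and was not tested as a binding site.

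The genes spanned a wide range of abundance, which was compared per kilobase of exon (the merged exons of each gene). In kidney, the mean level per kilobase over 6 libraries was highest for Ece1 at 18.5 ± 1.68 CPM per kb (SD, n = 6), followed by Ednrb at 8.55 ± 1.70, Npr1 at 6.71 ± 0.734 and Npr2 at 6.60 ± 0.450. Ece1 lay above Ednrb in all 6 libraries with no overlap of ranges, whereas Npr1 exceeded Npr2 in 3 of 6 libraries, so the order of that pair was not resolved. Gucy1a1 followed at 3.18 ± 0.580, Gucy1b1 at 2.22 ± 0.384, Npr3 at 1.87 ± 0.245 and Edn1 at 1.67 ± 0.282 CPM per kb, and neighbours among these 4 overlapped in range. Edn1 lay above Ednra in all 6 libraries with no overlap. Ednra at 0.600 ± 0.115 and Prkg1 at 0.502 ± 0.108 CPM per kb were lowest and overlapped in range, although Ednra was the higher in all 6 libraries.

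The order differed in the F4/80+ preparations. Ece1 was again first, at 34.6 ± 5.56 CPM per kb (SD, n = 6), with no overlap with the next gene. Edn1, the eighth in kidney, came next at 6.70 ± 3.48 CPM per kb and exceeded Ednrb, at 3.61 ± 1.27, in all 6 libraries. Npr2 stood at 2.21 ± 0.829, Gucy1a1 at 1.18 ± 0.509, Prkg1 at 0.976 ± 0.443, Gucy1b1 at 0.878 ± 0.480, Npr1 at 0.870 ± 0.373, Ednra at 0.756 ± 0.435 and Npr3 at 0.442 ± 0.262 CPM per kb. From Edn1 down, each range overlapped that of its neighbour, so the lower part of this order was not resolved. The ratio of the soluble guanylyl cyclase subunits per kilobase, Gucy1a1 over Gucy1b1, had overlapping ranges in the 2 sample types, with a median of 1.47 in kidney (range 1.11 to 1.88) and 1.42 in the preparations (1.05 to 1.77). The ratio of ligand to receptor, Edn1 over Ednra, was 2.31 to 4.27 in kidney and 8.03 to 10.2 in the preparations, with no overlap. The ratio of Ednrb over Ednra was 11.4 to 17.5 in kidney and 3.55 to 8.99 in the preparations, also with no overlap.

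**Figure D1:**
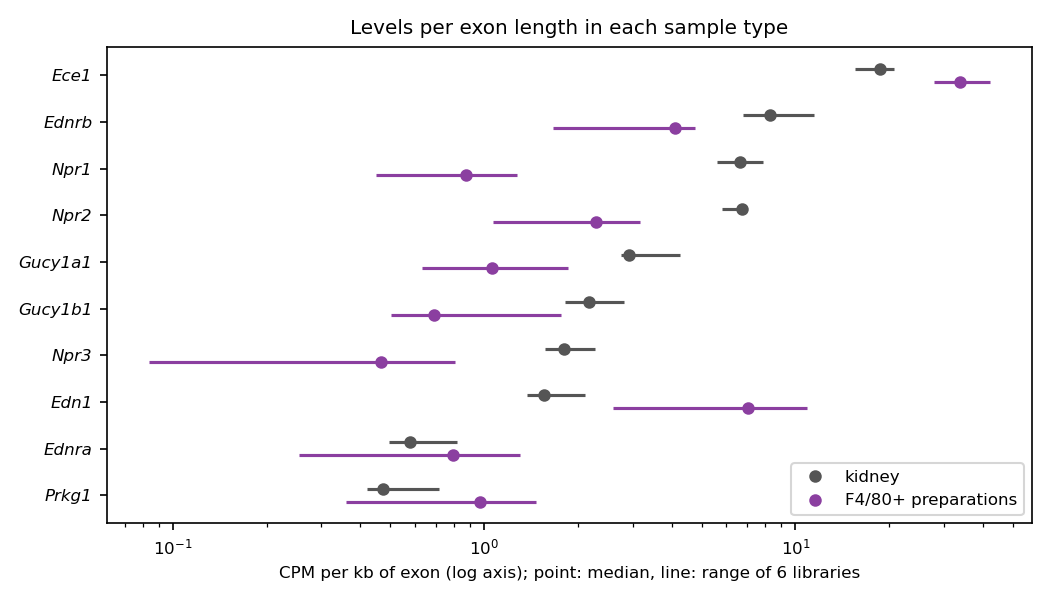
Level of each gene in CPM per kilobase of exon on a log axis, with a point at the median and a line over the range of 6 libraries, for whole kidney (grey) and F4/80+ preparations (purple). Edn1 moves from a mean of 1.67 in kidney to 6.70 in the preparations, while Npr1 moves from 6.71 to 0.870.

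The first comparison asked how the sample types differed over both genotypes. The natriuretic peptide receptors, the soluble guanylyl cyclase subunits and Ednrb were lower in the F4/80+ preparations, and Edn1, Prkg1 and Ece1 were higher. At an edgeR adjusted p under 0.05, 6 of the 10 genes fell and 3 rose. Of all 13578 genes tested, 32% were lower and 32.3% higher under the same rule, so a call in either direction was common. The members' median log2 fold change was -1.22, against -0.0075 over all genes. Sample type went with the deposited table and with the isolation procedure, and these cannot be told apart.

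Among the natriuretic peptide receptors, Npr1 showed the largest difference. In kidney it stood at 26.8, 31.5 and 33.0 CPM in the Arg/Arg libraries and 37.7, 31.9 and 31.7 CPM in the Trp/Trp libraries. In the preparations it stood at 4.80, 2.27 and 2.15 CPM in Arg/Arg and 6.10, 6.11 and 3.54 CPM in Trp/Trp. Every preparation lay below every kidney library, and the fitted log2 fold change was -2.89 ± 0.17 (SE), with an edgeR adjusted p of 1.52e-08. Npr3, the clearance receptor, ranged from 14.8 to 21.3 CPM in kidney and from 0.788 to 7.56 CPM in the preparations, where its counts were as low as 6 in 1 library. It was lower by -1.97 ± 0.30 on the log2 scale (edgeR adjusted p = 6.93e-05). Npr2 was lower by -1.52 ± 0.13 (edgeR adjusted p = 5.37e-07) over both genotypes, and its values by library are given with the genotypes.

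Both soluble guanylyl cyclase subunits fell. Gucy1a1 was at 19.8, 20.9 and 19.2 CPM in Arg/Arg kidney and 29.6, 19.5 and 24.1 CPM in Trp/Trp kidney. In the preparations Gucy1a1 was at 11.8, 5.69 and 4.40 CPM in Arg/Arg and 5.65, 12.9 and 9.06 CPM in Trp/Trp. The sample types did not overlap, and the log2 fold change was -1.34 ± 0.21 (edgeR adjusted p = 7.90e-05). For Gucy1b1 the kidney range was 7.14 to 11.0 CPM and that of the preparations 1.97 to 6.93 CPM, with a log2 fold change of -1.26 ± 0.26 (edgeR adjusted p = 0.000714). Prkg1, the cyclic GMP-dependent kinase, went the other way. It was at 4.82, 4.96 and 5.32 CPM in Arg/Arg kidney and 7.78, 4.58 and 5.29 CPM in Trp/Trp kidney. In the preparations Prkg1 was at 16.0, 3.92 and 7.34 CPM in Arg/Arg and 8.35, 12.8 and 15.2 CPM in Trp/Trp. The ranges of the sample types overlapped. Arg/Arg library 2 of the preparations lay below all kidney libraries, and Arg/Arg library 3 lay below Trp/Trp library 1 of kidney. The log2 fold change was 1.04 ± 0.25 with an edgeR adjusted p of 0.00251, but the two-sided exact permutation test over 6 against 6 libraries gave an adjusted p of 0.0622 for Prkg1.

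Edn1 showed the largest rise. It stood at 2.93, 3.20 and 4.52 CPM in Arg/Arg kidney and 4.08, 3.23 and 3.43 CPM in Trp/Trp kidney. In the preparations Edn1 stood at 21.2, 5.56 and 5.87 CPM in Arg/Arg and 14.8, 23.3 and 15.2 CPM in Trp/Trp. All preparations exceeded all kidney libraries, with a log2 fold change of 2.05 ± 0.27 (edgeR adjusted p = 1.98e-05), although Arg/Arg libraries 2 and 3 lay well below the other 4. Ece1, the enzyme that matures the peptide, ranged from 82.4 to 110 CPM in kidney and from 147 to 224 CPM in the preparations, a log2 fold change of 1.04 ± 0.13 (edgeR adjusted p = 9.97e-06). Ednra was not called, at 0.35 ± 0.29 (edgeR adjusted p = 0.307), and its range of 1.39 to 7.17 CPM in the preparations enclosed the kidney range of 2.71 to 4.48 CPM. Ednrb was lower, at 28.96 to 49.0 CPM in kidney and 7.08 to 20.3 CPM in the preparations, with a log2 fold change of -1.18 ± 0.15 (edgeR adjusted p = 1.76e-05). In the exact permutation test, the 8 called genes other than Prkg1 each reached 0.00216, the smallest p it can give with 6 against 6 libraries. Their adjusted p in that test, over 13290 genes, was 0.00509. It can be that low only because many of all genes reached the same smallest p, so full separation of the sample types was common.

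The summed levels of marker lists of other cells are given beside these differences. In the preparations 12 endothelial markers summed to 240 to 453 CPM, against 767 to 1017 CPM in kidney, and 10 of the 12 were called lower. The fibroblast and pericyte markers (10 listed, 9 of them in the table of the preparations) summed to 165 to 656 CPM against 403 to 789 CPM, with Col1a1 at 0 in at least 1 preparation, and 6 podocyte markers summed to 132 to 289 CPM against 452 to 693 CPM. The 6 intercalated cell markers summed to 958 to 2682 CPM in the preparations against 567 to 646 CPM, and the distal nephron and collecting duct markers (12 listed, 11 of them in the table of the preparations) to 5392 to 20077 CPM against 7233 to 7862 CPM. The 6 smooth muscle markers summed to 283 to 686 CPM in the preparations and 294 to 516 CPM in kidney, with Tagln at 0 in at least 1 preparation. Immediate early genes, a list of 12 chosen after the values were seen, summed to 5389 to 10556 CPM in the preparations against 228 to 330 CPM in kidney. The part of any of these in the members' differences was not tested.

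Of 36 further genes of the pathways, 26 could be tested between sample types, and 11 were higher and 6 lower in the preparations by edgeR, beside 32.3% higher and 32% lower over all genes. Among nitric oxide and cyclic GMP genes, Nos1, a nitric oxide synthase, was higher by 2.73 ± 0.25 on the log2 scale and Pde1c, a phosphodiesterase that degrades cyclic nucleotides, by 1.73 ± 0.17. Vasp, which encodes a substrate of the cyclic GMP kinase, was lower by -2.24 ± 0.16, and Abcc4, a transporter that exports cyclic nucleotides, by -1.12 ± 0.11. Among genes of peptides and their processing, Guca2a, which encodes the gut and kidney peptide guanylin, was higher by 3.15 ± 0.29, and Guca2b, which encodes uroguanylin, by 0.89 ± 0.31. The proteases Furin and Corin, which cut natriuretic peptide precursors, were lower by -2.02 ± 0.17 and -1.46 ± 0.21. Edn3, an endothelin ligand, was higher by 0.72 ± 0.20, and Kel, which encodes an endothelin-3-converting protease of red cells, by 2.48 ± 0.53 with group means under 1 CPM in every group. Adjusted p in edgeR was between 7.85e-08 and 0.0232 for these 10 genes. The natriuretic peptide genes Nppa, Nppb and Nppc, and Edn2, were not analysed here.

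**Figure D2:**
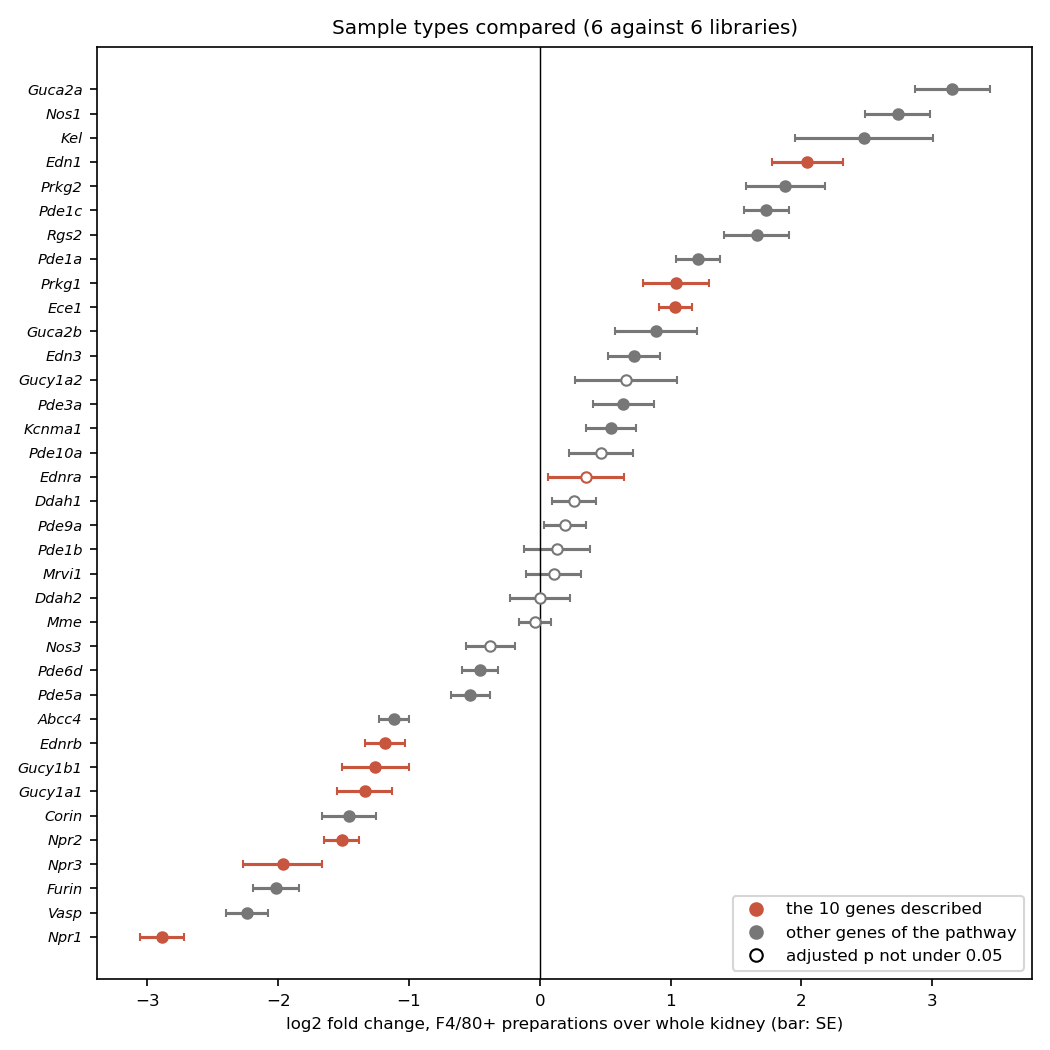
Log2 fold change of the F4/80+ preparations over whole kidney, with the SE as a bar, for the 10 genes described (red) and 26 further pathway genes (grey). Open points did not reach an edgeR adjusted p under 0.05. The natriuretic peptide receptors lie between -2.89 and -1.52, and Edn1 lies at 2.05.

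The second comparison asked how the Trp allele differed from the Arg allele in whole kidney. The differences were small, and none of the 9 members tested passed. Of all 14464 genes tested, 0% were called by edgeR at an adjusted p under 0.05, while 826 had an unadjusted p under 0.05 and DESeq2 called 15. Among the 9 members tested, Gucy1a1 stood at 0.27 ± 0.13 on the log2 scale (edgeR adjusted p = 0.843), and at 0.11 without Trp/Trp library 1. Ednrb stood at 0.24 ± 0.14 (edgeR adjusted p = 0.847), and at 0.089 without Trp/Trp library 1 and 0.37 without Trp/Trp library 3. Ednra stood at 0.21 ± 0.20, Prkg1 at 0.20 ± 0.19, Npr1 at 0.13 ± 0.09, Npr3 at 0.12 ± 0.12, Ece1 at 0.11 ± 0.08 and Gucy1b1 at 0.10 ± 0.16, and Edn1 at -0.0018 ± 0.20. These 9 members shared an adjusted p of 0.9996 in the authors' deposited table.

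With Npr2 left out, 8 of the 9 other members had a positive log2 fold change in kidney, where 50.6% of all genes did. Their median was 0.13, against 0.0021 over all genes, and it was 0.013, with 6 of 9 positive, without Trp/Trp library 1 and 0.22 without Trp/Trp library 3. Trp/Trp library 1 was the highest of the 6 for Npr1, Npr3, Gucy1a1, Gucy1b1, Prkg1, Ednra, Ednrb and Ece1, and it stood apart from the other 5 on the first principal component of all genes. In the same library fibroblast and pericyte markers summed to 789 CPM against 403 to 437 CPM in the other 5, and smooth muscle markers to 516 CPM against 294 to 356 CPM. Macrophage markers summed to 262 to 310 CPM in Arg/Arg and 346 to 554 CPM in Trp/Trp kidney, without overlap. This was 1 of 8 marker lists, and groups failed to overlap in 10.3% of all genes in kidney. The part of these markers in the members' values was not tested.

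The third comparison asked the same within the F4/80+ preparations. The fold change was larger in size than in kidney for each member other than Gucy1a1, the spread was also larger, and again no tested member passed. Of all 15225 genes tested, 0% were called by edgeR at an adjusted p under 0.05, while 1224 had an unadjusted p under 0.05 and DESeq2 called 11. The biological coefficient of variation was 0.280 in the preparations against 0.101 in kidney. Ednra, at 6.11, 1.39 and 1.47 CPM in Arg/Arg and 3.86, 7.17 and 4.86 CPM in Trp/Trp, had a log2 fold change of 0.77 ± 0.51 (edgeR adjusted p = 0.735). Arg/Arg library 1 lay among the Trp/Trp values for Ednra, and the log2 fold change was 1.62 without it, 0.47 without Arg/Arg library 2 and 0.47 without Arg/Arg library 3. Ednrb was at 16.9, 7.08 and 10.3 CPM in Arg/Arg and 18.2, 20.3 and 19.6 CPM in Trp/Trp. All 3 Trp/Trp libraries were the higher, and the log2 fold change was 0.67 ± 0.28 (unadjusted p = 0.0352, edgeR adjusted p = 0.608). Groups failed to overlap in 10.5% of all genes in the preparations and in 10.3% in kidney, so the separation of Ednrb in the preparations is of a kind that about that share of genes had.

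Of the other members in the preparations, Npr1 stood at 0.70 ± 0.41 and Edn1 at 0.65 ± 0.41 on the log2 scale (edgeR adjusted p = 0.692 and 0.708). Edn1 was at 1.38 without Arg/Arg library 1, 0.37 without Arg/Arg library 2 and 0.39 without Arg/Arg library 3. Prkg1 was at 0.34 ± 0.41, Gucy1b1 at 0.27 ± 0.48 and Gucy1a1 at 0.24 ± 0.38, and their groups overlapped. Npr3 at -0.60 ± 0.60 and Ece1 at -0.30 ± 0.26 were on the negative side, also with overlapping groups. Npr3 was at -1.30 without Trp/Trp library 1 and -0.16 without Trp/Trp library 3. With Npr2 left out, 7 of the 9 other members were positive, where 51.1% of all genes were. Their median log2 fold change was 0.34, against 0.0093 over all genes. It was 0.85 without Arg/Arg library 1 and 0.22 without Arg/Arg library 2, and 5 of 9 were positive without Trp/Trp library 2. In the authors' deposited table an adjusted p was given only for Ece1 among the members, at 0.768.

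Arg/Arg libraries 2 and 3 held the lowest values of Edn1, Ednra, Ednrb and Npr1 among the 6 preparations, while Arg/Arg library 1 lay near or above the Trp/Trp libraries for Edn1, Ednra and Prkg1. Macrophage markers showed the same split, with sums of 69.2 and 55.7 CPM in Arg/Arg libraries 2 and 3, 199 CPM in Arg/Arg library 1 and 189 to 313 CPM in Trp/Trp. Distal nephron and collecting duct markers summed to 5742 and 5392 CPM in Arg/Arg libraries 2 and 3 against 11016 to 20077 CPM in the other 4. Proximal tubule markers ran the other way, at 52116 and 46561 CPM against 16581 to 30776 CPM. Of the 8 marker lists, 0 had genotype groups without overlap in the preparations, whereas the immediate early list summed to 5389 to 9293 CPM in Arg/Arg and 9399 to 10556 CPM in Trp/Trp. Their part in the members' values was not tested.

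**Figure D3:**
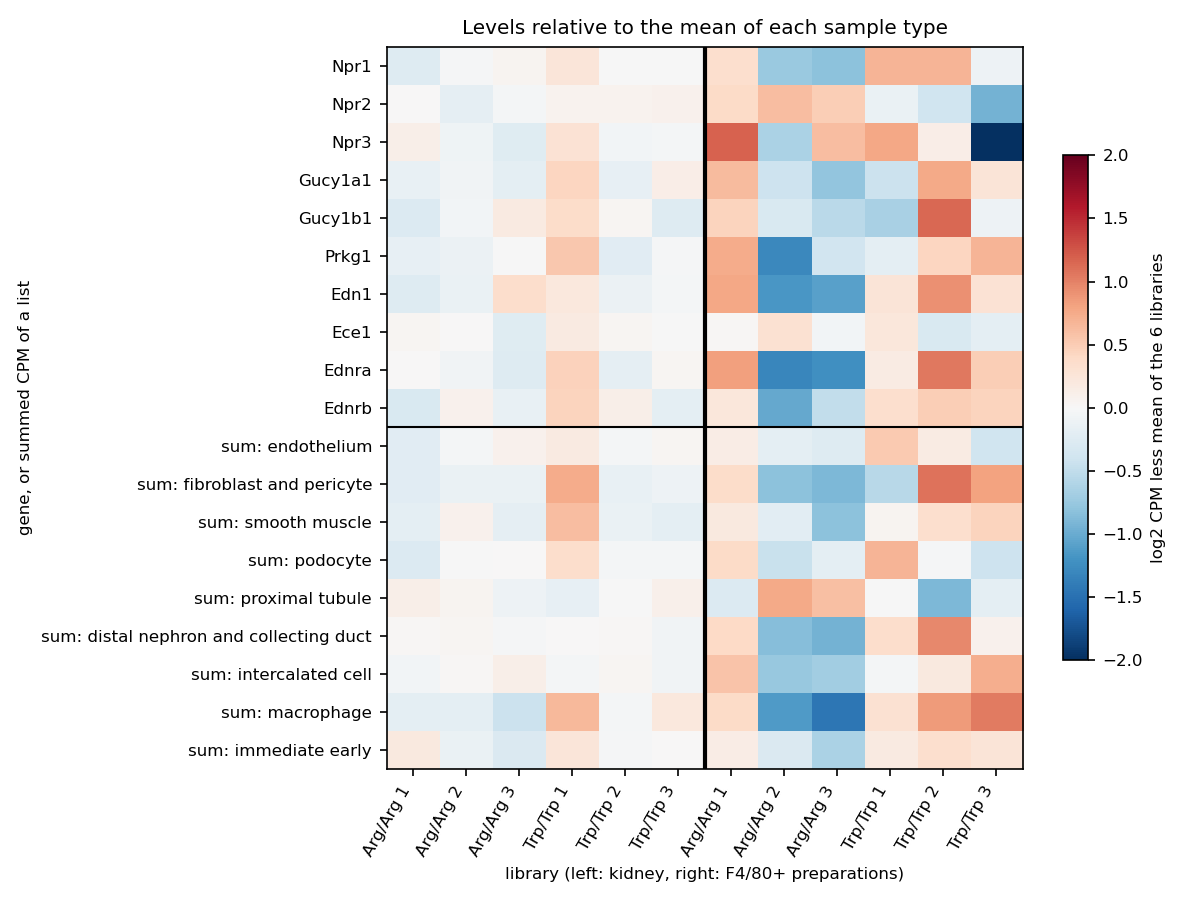
Log2 level of each gene (upper rows) and log2 summed level of each marker list (lower rows) in each library, less the mean of the 6 libraries of its sample type, as a colour from -2 to 2 (Npr3 in Trp/Trp library 3 lies beyond the scale). Arg/Arg libraries 2 and 3 of the F4/80+ preparations are low for Edn1, Ednra and macrophage markers, and Trp/Trp library 1 is high in most kidney rows.

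Npr2, the receptor for C-type natriuretic peptide, is described without a test because the set was selected on its genotype values. In kidney it stood at 30.8, 27.1 and 29.8 CPM in Arg/Arg and 32.4, 32.2 and 32.6 CPM in Trp/Trp. In the preparations it stood at 12.5, 14.8 and 13.5 CPM in Arg/Arg and 8.79, 7.28 and 4.99 CPM in Trp/Trp, from 38 to 138 counts per library. The genotypes did not overlap in either sample type, with Trp/Trp the higher in kidney and the lower in the preparations. The log2 fold change of Trp/Trp over Arg/Arg was 0.13 ± 0.07 in kidney and -1.09 ± 0.32 in the preparations, and the difference between these was -1.23 ± 0.27. Leaving out any 1 library kept the kidney value between 0.08 and 0.17 and that of the preparations between -1.36 and -0.91. With scaling by library totals only, it was 0.15 ± 0.07 in kidney and -0.81 ± 0.46 in the preparations. These values describe the pattern the set was selected on and do not test it. The authors' deposited table gave 0.13 in kidney and -1.13 in the preparations for Npr2, with no adjusted p in the latter. The same arrangement, no overlap in either sample type with Trp/Trp higher in kidney and lower in the preparations, was seen in 16 of 12689 genes, or 0.126%. In either direction, groups failed to overlap in 10.3% of all genes in kidney and in 10.5% in the preparations. Both at once, in set directions, is rarer by construction, so this share does not test Npr2.

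**Figure D4:**
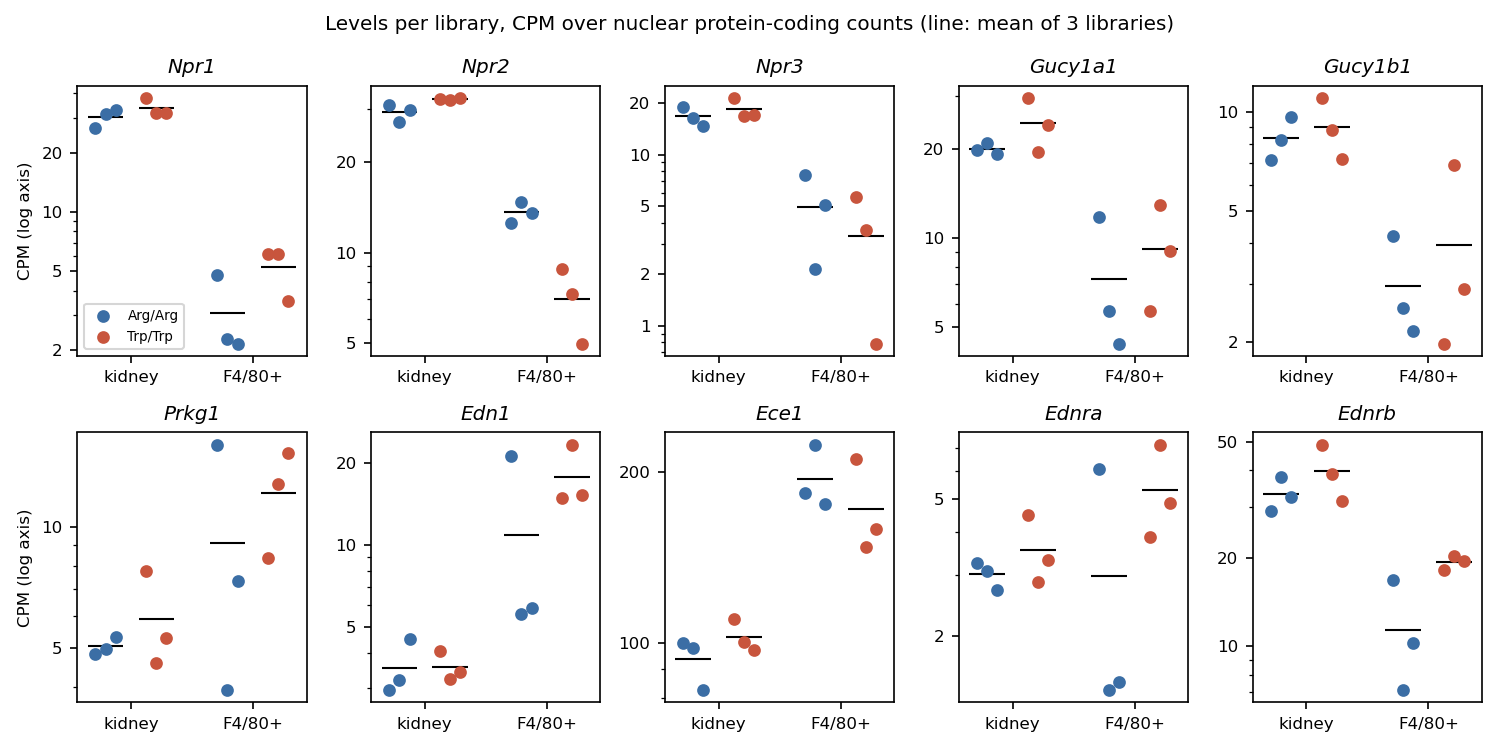
CPM of each gene in each library on log axes that differ between panels, with Arg/Arg libraries in blue, Trp/Trp libraries in red, and a line at the mean of 3 libraries. For Npr2 the Trp/Trp libraries lie at 32.2 to 32.6 CPM, above Arg/Arg, in kidney and at 4.99 to 8.79 CPM, below Arg/Arg, in the F4/80+ preparations.

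For Npr2, Arg/Arg library 1 of the preparations lay with libraries 2 and 3 of its group, which is part of the pattern the set was selected on. The genes whose profile was most like that of Npr2 were found by the root mean square difference of standardized log2(CPM + 1) profiles, centred within each sample type, over 12 libraries and 12464 genes. They were Gbp10, Phyhipl, Mfsd11, Prr5 and Frg2f1, at 0.333 to 0.378, which is a description, since they were picked as the closest. Gbp10 stood at 1.31, 2.53 and 1.76 CPM in Arg/Arg preparations and 0.449, 0.117 and 0 CPM in Trp/Trp preparations, so it reached the required mean of 1 CPM there only through the Arg/Arg group. Each profile was divided by its own SD over all centred values, so a sample type with a larger spread weighed more. Mfsd11, for example, was at 26.3, 27.9 and 25.3 CPM in Arg/Arg preparations and 21.3, 19.4 and 16.8 CPM in Trp/Trp preparations, but its kidney genotypes overlapped. By the same measure the closest other member to Npr2 was Ece1, at 0.890, whereas Edn1 and Ednra were 0.314 apart, Gucy1a1 and Ednra 0.438, and Prkg1 and Ednra 0.480. Many other genes were closer. Among all 12464 genes, Ece1 ranked 950 in closeness to Npr2, while Ednra ranked 98 for Edn1, 88 for Gucy1a1 and 335 for Prkg1.

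**Figure D5:**
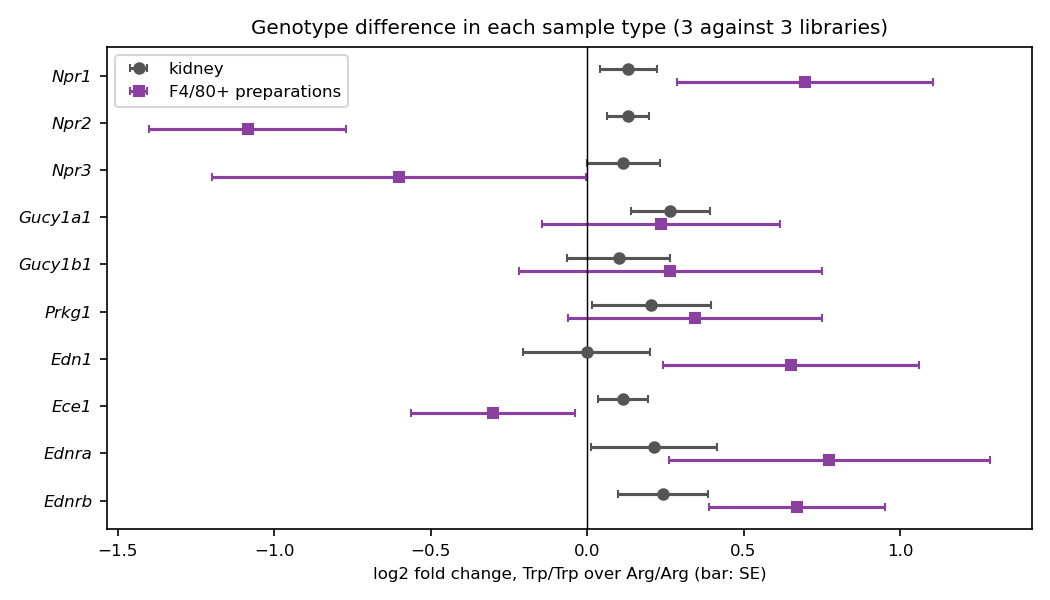
Log2 fold change of Trp/Trp over Arg/Arg with its SE for each gene in kidney (grey circles) and F4/80+ preparations (purple squares), 3 against 3 libraries. Kidney values lie between -0.0018 and 0.27, and those of the preparations between -1.09 for Npr2 and 0.77 for Ednra.

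Whether the genotype difference itself differed between sample types was tested for the other 9 members, and 0 were called by edgeR. Over all 13578 genes 0% were called at an adjusted p under 0.05, 921 had an unadjusted p under 0.05, and limma-voom with sample weights called 0. The values of the members ranged from -0.73 ± 0.60 for Npr3 to 0.63 ± 0.53 for Edn1 on the log2 scale. Without Arg/Arg library 1 of the preparations, 580 of 13701 genes were called, and Edn1 was among them at 1.39 (edgeR adjusted p = 0.0448). The Arg/Arg preparations kept in that fit held the lowest Edn1 values among the preparations. With any other library left out, Edn1 stood at 0.36 to 0.75 and was not called.

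The further pathway genes gave 0 calls between genotypes by edgeR, of 26 tested in kidney and 25 in the preparations. In kidney 16 of 26 had a positive log2 fold change, against 50.6% of all genes. The smallest unadjusted p in kidney belonged to Nos2, the inducible nitric oxide synthase, at 0.78 ± 0.27 and to Corin at -0.40 ± 0.14. Nos2 was low, at 0.70 to 1.79 CPM over the kidney libraries, and had no row for the preparations. In the preparations 18 of 25 were positive, against 51.1% of all genes. The smallest unadjusted p there belonged to Nos1 at 1.36 ± 0.35, to Nos3, the endothelial nitric oxide synthase, at 1.08 ± 0.37, to the phosphodiesterase gene Pde10a at 0.96 ± 0.39 and to Ddah1, whose product degrades an inhibitor of nitric oxide synthases, at -0.73 ± 0.32. The edgeR adjusted p of these 4 was between 0.605 and 0.616.

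Exons of Npr1, Npr2 and Npr3 overlap genes on the opposite strand over 11.7%, 5.70% and 3.42% of their length in the GENCODE annotation (Gm16048, Gm12473 and Gm5144). The sources used here did not state whether counting used strand, so reads of these genes and of their partners could not be told apart in those stretches.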

How the data were processed

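Polyadenylated RNA from 6 whole kidneys and 6 F4/80+ preparations was sequenced. The authors deposited a table per sample type with raw counts per gene and library, not pooled. The same deposited tables give the authors' log2 fold change (turned here to Trp/Trp over Arg/Arg by its sign against the counts) and the authors' adjusted p-value, missing for some genes. STAR, DRAGEN, DESeq2 and build mm10 are named per the submitters' processing notes, without versions or roles. The annotation release and the strand setting were not given in the sources used here. Gene coordinates matched GENCODE M21.

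Counts were fitted in R 4.3.3 with edgeR 4.0.16 (quasi-likelihood test, TMM scaling, filterByExpr with a minimum count of 10 and a minimum total of 15, Benjamini-Hochberg adjustment over all genes tested, threshold 0.05). Genotypes were compared within each table (14464 and 15225 genes). Sample type and its interaction with genotype were fitted on 13578 nuclear protein-coding genes present in both. All 10 members passed each filter. Fold changes come from these fits, and CPM, which are not TMM-scaled, are shown beside them. DESeq2 1.42.0, limma 3.58.1 (voom) and an exact permutation test served as alternatives, together with other scalings, no filter, a replicate block and leaving out each library. An exact permutation test of 3 against 3 libraries cannot go below 0.1 and was not used for genotypes. Counts behind a member were 59 to 4898 per kidney library and 6 to 2354 per F4/80+ library.

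The members, marker lists and 3 pathway lists (36 genes) were chosen with earlier results of these data known, and the immediate early list after its values were seen. All members are named, and from each pathway list up to 4 genes of smallest unadjusted p per comparison, or any that passed in a genotype comparison. For the likeness to Npr2, the 5 closest genes with a mean of at least 1 CPM in each sample type are named. Figures were made in matplotlib 3.10.9 (Python 3.11.15). Promoter sequences are from RefSeq, and all 10 members matched.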

Additional observations from a re-analysis of the deposited data

Results flagged for a closer look

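Npr2 drew attention because every Trp/Trp library lay above every Arg/Arg library in kidney and below every Arg/Arg library in the F4/80+ preparations. The log2 fold change of Trp/Trp over Arg/Arg in the preparations less that in kidney was -1.23. The difference was not tested, because the genes were selected on this pattern. It was -1.62 with sample weights in limma-voom and -1.09 with library totals only.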

How the results depend on the processing

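DESeq2 called 15 genes in kidney and 11 in the F4/80+ preparations between genotypes, where edgeR called 0. The count of genes whose genotype difference differed between sample types ran from 0 to 580 when 1 library was left out, with 580 without Arg/Arg library 1 of the preparations and 1 without Trp/Trp library 1 of the preparations. For Edn1 in kidney, the log2 genotype difference of -0.0018 turned to 0.024 with library totals only and to 0.021 with the replicate block, and ran from -0.12 to 0.20 with 1 library left out. For members that kept their sign in the preparations, leaving out 1 library gave 0.47 to 1.62 for Ednra, 0.37 to 1.38 for Edn1, 0.0073 to 0.85 for Prkg1, 0.45 to 0.91 for Ednrb, -1.30 to -0.16 for Npr3 and -0.55 to -0.15 for Ece1. Leaving out 1 library also turned the sign in kidney for Gucy1b1 (-0.040 to 0.22) and Prkg1 (-0.043 to 0.36), and in the preparations for Gucy1a1 (-0.013 to 0.60) and Gucy1b1 (-0.33 to 0.56). It turned the sample type difference of Ednra (-0.094 to 0.51), which was not called, with the negative value without Arg/Arg library 1 of the preparations. The genotype by sample type difference of Gucy1a1 was 0.063 with library totals only and 0.28 with limma-voom, and it ran from -0.34 to 0.35 with 1 library left out. That of Gucy1b1 ran from -0.49 to 0.51 and that of Prkg1 from -0.20 to 0.64. The cause was not tested. The 9 sample type calls held by edgeR in each library left out, and Prkg1 alone was lost in the exact permutation test.

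Scaling by library totals only moved the median log2 fold change of all genes to 0.23 for genotype in the preparations, to 0.14 for the interaction and to -0.13 for sample type. Replicate numbers did not pair the samples, with correlations of deviations of -0.49 to 0.18 between same-numbered libraries, and at most 2 of 6 libraries correlated best with their own number. With the replicate block, genotype calls stayed at 0 in both sample types, as did interaction calls, and 8102 genes were called between sample types, against 8734. In the preparations, counts of 6 to 2354 per library limit the precision for the low members, Npr3 above all.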
